A study of Mus musculus with 6 samples.

Results

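The 2-cell-like state is a rare, transient condition in cultures of mouse embryonic stem cells in which transcripts of the 2-cell embryo, such as those of the Zscan4 genes, are switched on. The genes described here are 9 of its known regulators, chosen for their published role but with earlier results of these data known. Dppa2 and Dppa4 are activators. Kdm1a, Zmym2, Setdb1, Ehmt1, Ehmt2, Chaf1a and Chaf1b are repressors. All 9 were found among the 55450 genes of the deposited tables by matching identifiers to GENCODE M21 symbols, and all 9 passed the filter on low counts, with 132.6 to 1322 expected counts (estimated reads) per library.

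The study compared Hoxd12-/- embryonic stem cells with wild-type embryonic stem cells, 3 libraries of each. Per the labels, cells of both genotypes were of strain C57BL6, were given the developmental stage E3.5 embryo and were grown in mES medium supplemented with 2i, inhibitors of kinases under which stem cells stay naive. Separate cultures or clones are not named for the libraries of a genotype, so each p-value reflects library-to-library spread alone, and this may be technical. RNA was made into libraries with a stranded mRNA kit, and totals lay between 5412577 and 6280934 expected counts.

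Dppa2 and Dppa4 are small nuclear proteins that bind DNA through a SAP domain, pair with each other and are needed for the expression of Dux, the transcription factor that switches on 2-cell-like genes. The repressors act on chromatin. Chaf1a and Chaf1b are subunits of chromatin assembly factor 1 (CAF-1), which places histones on newly copied DNA. Setdb1, Ehmt2 (G9a) and Ehmt1 (GLP) are methyltransferases of lysine 9 of histone H3 (H3K9), a mark of silent chromatin, and Ehmt1 and Ehmt2 work as a pair. Kdm1a (LSD1) removes methyl groups from histone H3 and works with CoREST proteins and histone deacetylases, and Zmym2 is a zinc finger protein that associates with this complex. Loss of LSD1, CAF-1 or G9a function in mouse stem cells is known to raise the share of 2-cell-like cells.

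Hoxd12, the targeted gene (ENSMUSG00000001823), had 0 counts in all 6 libraries, so it gave no check of the genotypes; the limit that 0 counts allow, 3 counts, is 0.478 to 0.554 CPM (counts scaled to library size), for counting error only. Knockout replicate 2 stood apart. The ribosomal RNA gene CT010467.1 took 1.63% of its counts, against 0.102% to 0.139% in the other 5 libraries, and results that rest on this library are given with and without it. All 10 embryonic stem cell markers on the list (Pou5f1, Sox2 and others) were tested, 1 called higher (Zfp42) and 1 lower (Nanog), and the call of Nanog was lost without knockout replicate 2 or 3 (edgeR adjusted p = 0.0934 and 0.0694). Over all tested genes 12.1% were called higher and 14.4% lower. With knockout replicate 2 left out 5 of these markers were called higher and 0 lower, beside 10.8% and 13.5% of all genes. By limma on log2(TPM + 1) 3 of the markers were higher and 1 lower, beside 8.59% and 5.81%. On that scale the median log2 fold change of all genes was 0.10, and by edgeR that of the 10 markers was 0.06. Their summed level was 12474 to 12740 TPM (an abundance scaled to transcript length and library size) for the knockout and 11215 to 11768 TPM for wild type. Summed TPM of 12 fibroblast markers was 4.90 to 8.99 and 8.52 to 12.6 in the same order, with 4 tested, 1 called lower (Thy1) and 6 at 0 in every library (Col3a1, Lum, Dcn, Postn, Col6a3 and Twist2). Summed TPM of 10 primitive endoderm markers was 4.45 to 7.84 and 4.31 to 4.86, with 3 tested, 2 called higher (Gata4 and Lrp2) and 1, Sox7, at 0 in every library; Thy1 lost its call without knockout replicate 1, and Gata4 and Lrp2 lost theirs without knockout replicate 1 or wild-type replicate 1, among others. Their part in the results below was not tested.

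The 2 regulators that fell in the knockout were Chaf1b (-26.9% on the linear scale) and Ehmt2 (-9.13%). Of the 9 regulators, 0 rose. The 2 calls make 22.2% of the regulators, against 26.5% of the 12891 genes tested that were called in either direction (edgeR's quasi-likelihood test, called where the p adjusted after Benjamini and Hochberg was below 0.05), so the share called was near the background. Over all genes, 12.1% were called higher and 14.4% lower; higher genes made 45.6% of all calls, 35.3% with DESeq2 and 59.6% with limma on log2(TPM + 1). The median log2 fold change of the 9 regulators was -0.04, beside 0.02 over all tested genes, and the median absolute value was 0.14 beside 0.20. Groups of CPM did not overlap for the same 2 regulators, 22.2%, where 39.7% of all tested genes did not overlap. With knockout replicate 2 left out the calls were 2 higher and 2 lower, beside 10.8% and 13.5% of all genes, 24.3% together. DESeq2 called 1 of the 9, lower, beside 5.44% of all genes higher and 9.98% lower, 15.4% together. On log2(TPM + 1) limma likewise called 1, lower, beside 8.59% higher and 5.81% lower.

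**Figure D1:**
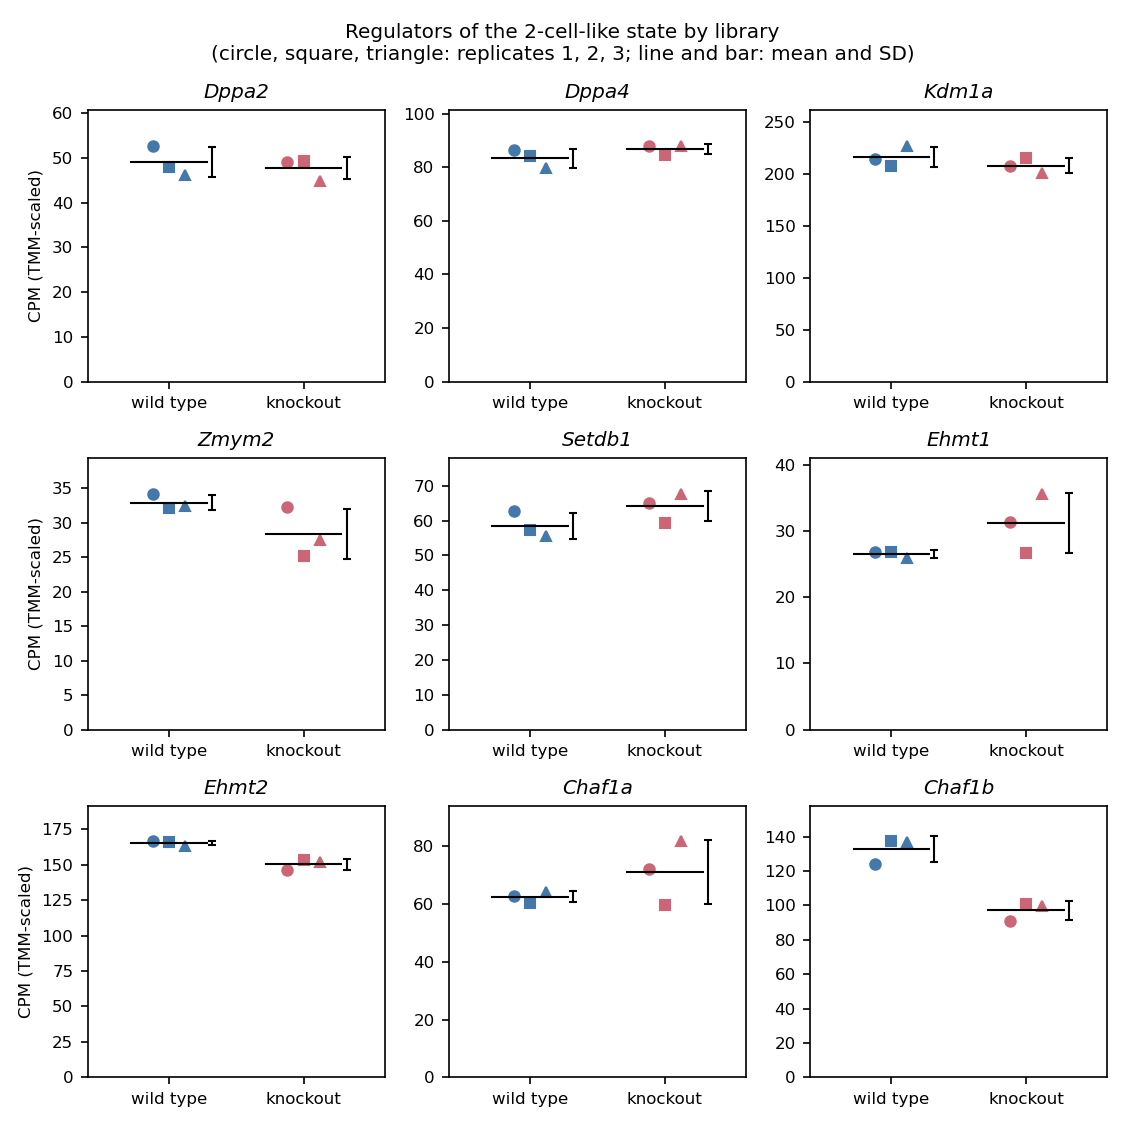
CPM (counts scaled to TMM-adjusted library size, vertical axes from 0) of each of the 9 regulators in the 3 wild-type and 3 knockout libraries; symbols mark replicates 1 to 3, lines the mean and bars the SD. Only the panels of Ehmt2 and Chaf1b show groups that do not overlap, and the knockout points of Ehmt1 and Chaf1a are spread most, with replicate 2 lowest.

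The promoters of the CAF-1 subunits are shown because these partners had log2 fold changes of opposite sign, described below, though Chaf1a was not called. The pairs Ehmt2 and Ehmt1 (-0.14 and 0.24) and Dppa2 and Dppa4 (-0.04 and 0.06) also differed in sign, and their promoters are not printed. Each line holds the 250 bases before the annotated start, 5′ to 3′ on the coding strand, from RefSeq on GRCm38.p6. Capitals mark TTCCCGC, the core of the sequence that E2F factors of the cell cycle bind, or its reverse complement GCGGGAA.
Chaf1a, chr17:56040166-56040415, plus strand: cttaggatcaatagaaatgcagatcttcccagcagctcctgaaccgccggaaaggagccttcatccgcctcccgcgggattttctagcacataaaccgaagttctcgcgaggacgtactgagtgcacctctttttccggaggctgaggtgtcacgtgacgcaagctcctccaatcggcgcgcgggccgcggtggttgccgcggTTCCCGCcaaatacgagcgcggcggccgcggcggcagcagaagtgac
Chaf1b, chr16:93883651-93883900, plus strand: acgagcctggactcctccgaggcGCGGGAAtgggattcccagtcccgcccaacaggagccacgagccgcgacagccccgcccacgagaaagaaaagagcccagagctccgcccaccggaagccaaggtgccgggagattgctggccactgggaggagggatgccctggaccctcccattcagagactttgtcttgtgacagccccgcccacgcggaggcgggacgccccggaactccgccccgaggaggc
In Chaf1a the match starts 47 bases before the RefSeq start of the gene, and in Chaf1b it starts 227 bases before that start on the opposite strand. The GENCODE start of Chaf1a given below, 56040439, lies downstream of the RefSeq start, so the distance from it is longer. A further match in Chaf1b, again on the opposite strand, begins at base 27 of the gene, counting the start as base 1. The motif was chosen after these windows had been seen. Windows of 300 bases, which include the first 50 of the gene, were given for 7 of the 9 regulators, all but Dppa2 and Dppa4, and TTCCCGC on either strand was present for 2 of them, Chaf1a and Chaf1b. Over all 27025 genes with such a window, 5.29% held it. The motif contains a CG, and the windows of these regulators held 15 to 40 CG pairs, against a median of 7 over all windows. The 2 shares are therefore not alike in base content, and enrichment was not tested. A match is a description of the letters and not evidence that a factor binds there.

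The activators Dppa2 (ENSMUSG00000072419) and Dppa4 (ENSMUSG00000058550) are neighbours on chromosome 16, at 48303908 to 48319723 and 48283733 to 48294237 (GRCm38), with 9670 bases between them, both on the plus strand. Dppa2 measured 49.1, 49.3 and 44.95 CPM in knockout replicates 1, 2 and 3 against 52.7, 48.0 and 46.2 CPM in wild type. The groups overlapped. The mean was 47.8 ± 2.48 CPM against 49.0 ± 3.36 CPM in wild type (SD, n = 3), a log2 fold change of -0.04 with a 95% interval of -0.20 to 0.13 (edgeR adjusted p = 0.782).

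Dppa4 measured 88.0, 84.5 and 87.7 CPM in the knockout against 86.3, 84.0 and 79.6 CPM in wild type. The ranges of the groups overlapped between 84.5 and 86.3 CPM. Its log2 fold change was 0.06, with an interval of -0.06 to 0.18 (edgeR adjusted p = 0.512). The intervals bound the change of Dppa2 to between -12.9% and 9.11% and that of Dppa4 to between -4.33% and 13.6%. Neither gene was called under any of the 15 alternative settings, whose adjusted p ran from 0.557 to 0.962 for Dppa2 and from 0.139 to 0.828 for Dppa4. The genes whose pattern over the 6 libraries lay nearest to that of Dppa4 were Fip1l1, Nes and Ap3s2, at Euclidean distances of 0.03, 0.03 and 0.04 in log2(CPM + 1) centred on wild type.

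Of the transcripts that the activators are known to control, those of the Zscan4 genes were lower in every knockout library. Duxf3, the Dux gene in this annotation, had 0, 1 and 0 counts in the knockout and 3, 4 and 2.70 in wild type. These lie below, at or just above the limit of 3 counts, and the gene was not tested in the main fit. Summed over 9 annotated Zscan4 genes, whose copies are near identical and cannot be separated with certainty, expression was 4.58, 3.39 and 2.71 CPM of the library total in the knockout and 35.8, 34.0 and 36.4 CPM in wild type. Every wild-type library was thus above every knockout library, and the ratio of the means was 9.94. In bulk RNA, fewer 2-cell-like cells and less RNA per such cell cannot be told apart. Of 40 matched 2-cell-like genes on the list, 10 passed the count filter, and 9 of these fell, beside 14.4% of all tested genes. Only 1 of the 10, Zfp850, reached the filter's minimum in all 3 knockout libraries, so the count is a description and not comparable with that share. Without a count filter 15 of the list were called lower, beside 7.26% of all genes, likewise a description.

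Of the CAF-1 subunits, Chaf1b fell and its partner Chaf1a was not called. Chaf1b, the p60 subunit (ENSMUSG00000022945, chromosome 16, 93883901 to 93906115), measured 90.9, 101 and 99.9 CPM in the knockout against 124, 137 and 137 CPM in wild type. All knockout libraries lay below all wild-type libraries. The mean fell from 132.7 ± 7.39 to 97.1 ± 5.40 CPM (SD, n = 3), a log2 fold change of -0.45 (SE 0.06, interval -0.57 to -0.34, edgeR adjusted p = 2.28e-07). The call held in all 15 alternative settings, with adjusted p between 2.07e-13 and 0.0255.

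Chaf1a, the large p150 subunit (ENSMUSG00000002835, chromosome 17, 56040439 to 56072289), measured 72.0, 59.6 and 81.6 CPM in the knockout against 62.9, 60.4 and 64.3 CPM in wild type. Knockout replicates 1 and 3 were above all wild-type libraries and knockout replicate 2 was below them. The log2 fold change was 0.19 (interval 0.01 to 0.37, edgeR adjusted p = 0.109), and without knockout replicate 2 it was 0.30 and called (edgeR adjusted p = 0.00373; alternatives gave 0.00373 to 0.539). The remaining subunit, Rbbp4, a histone-binding protein shared with other complexes and named here outside the rule for named genes, measured 305.4 ± 18.8 CPM against 305.1 ± 9.02 CPM in wild type (log2 fold change 0.00, interval -0.09 to 0.10).

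Because the subunits are needed together, their ratio was taken per length, from TPM. Chaf1b exceeded Chaf1a 4.42, 5.71 and 4.34 times in the knockout libraries and 6.74, 8.76 and 8.76 times in wild type. The ranges did not overlap, and the log2 ratio differed by -0.75 (2.26 ± 0.220 against 3.01 ± 0.218; SD, n = 3). The exact two-sided permutation test gave p = 0.1, the smallest that 3 against 3 libraries allow, and 0.2 after adjustment over the 4 pairs compared. Leaving out any library gave -0.87 to -0.68 for this ratio of TPM. On counts of all libraries the difference was -0.62.

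**Figure D2:**
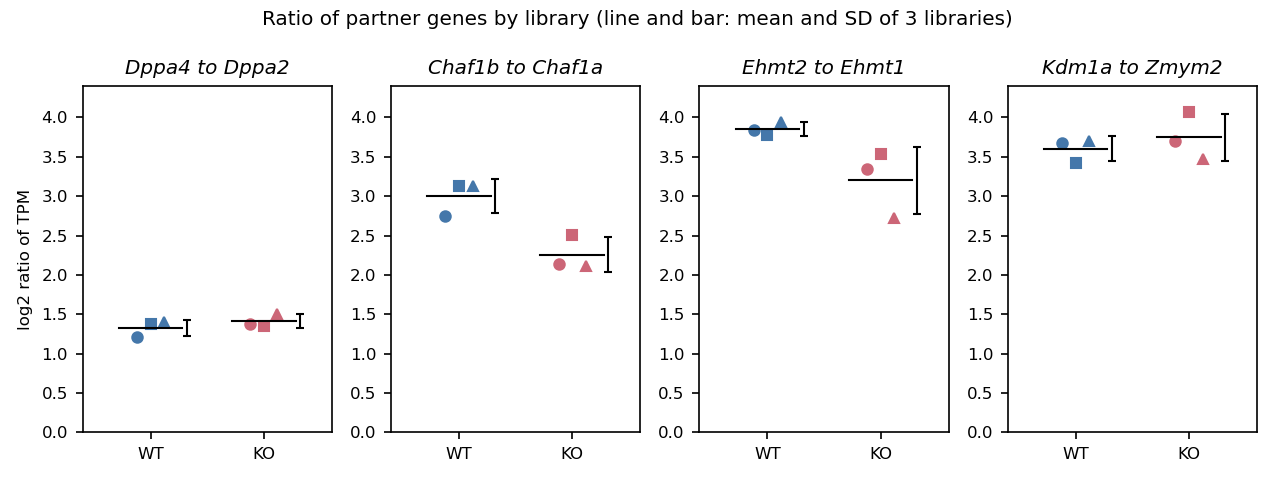
Log2 ratio of TPM (vertical axes) of 4 pairs of partner genes in each wild-type (WT) and knockout (KO) library; symbols mark replicates 1 to 3, lines the mean and bars the SD. The ratios of Chaf1b to Chaf1a and of Ehmt2 to Ehmt1 are lower in all 3 knockout libraries, and the other pairs overlap.

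The nearest patterns to that of Chaf1b over the 6 libraries were those of Usmg5, Tbl3 and Wdr18, at distances of 0.07, 0.07 and 0.09 in log2(CPM + 1). Their log2 fold changes were -0.45, -0.44 and -0.48, and likeness to that of Chaf1b follows from how these genes were picked. Among 17 histone chaperones and replication-linked partners on the list, Ubn1 (0.40, edgeR adjusted p = 0.00703), a subunit of the HIRA complex that places histones outside replication, and Supt16 (0.26, edgeR adjusted p = 0.00711), a subunit of the FACT chaperone, rose. Nasp, a chaperone of histone H3, fell (-0.17, edgeR adjusted p = 0.00419). These calls, 2 higher and 1 lower, make 17.6% of the list, beside 26.5% of all tested genes. The median of the list was 0.05. Ubn1 was not called by DESeq2 (adjusted p = 0.0646), and Nasp was not called by limma on log2(TPM + 1) (adjusted p = 0.144). Supt16 lost its call when knockout replicate 1 or 3, or replicate 2 or 3 of wild type, was left out (edgeR adjusted p = 0.0507 to 0.0570). With a transcript length offset, 3 of the list fell and 2 rose, beside 11.1% and 8.07% of all tested genes.

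Of the H3K9 methyltransferases, Ehmt2 fell, and Ehmt1 and Setdb1 were not called. Ehmt2 (ENSMUSG00000013787, chromosome 17, 34898469 to 34914052) measured 146, 153 and 151 CPM in the knockout against 166, 166 and 163 CPM in wild type. All knockout libraries lay below all wild-type libraries. The mean fell from 165.1 ± 1.602 to 150.1 ± 3.77 CPM (SD, n = 3; log2 fold change -0.14, SE 0.05, edgeR adjusted p = 0.0281). This call was made in 7 of 15 alternatives. It was lost with DESeq2 (adjusted p = 0.132), and without knockout replicate 1 (edgeR adjusted p = 0.132) or wild-type replicate 1 (0.0616), 2 (0.0867) or 3 (0.0576).

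Ehmt1 (ENSMUSG00000036893, chromosome 2, 24789928 to 24919614) measured 31.4, 26.7 and 35.7 CPM in the knockout against 26.9, 26.9 and 26.0 CPM in wild type. Wild type was tight, while knockout replicate 2 lay within the wild-type range and knockout replicates 1 and 3 above it. The log2 fold change was 0.24 (interval 0.02 to 0.46, edgeR adjusted p = 0.0987), and without knockout replicate 2 it was 0.34 and called (edgeR adjusted p = 0.0217; alternatives gave 0.0217 to 0.457). Per length, Ehmt2 exceeded Ehmt1 10.2, 11.6 and 6.61 times in the knockout and 14.3, 13.7 and 15.4 times in wild type, without overlap. The log2 ratio of TPM differed by -0.65 (exact two-sided permutation p = 0.1, adjusted 0.2 over the 4 pairs), and by -0.41 without knockout replicate 3. On counts of all libraries the difference was -0.36.

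Setdb1 (ENSMUSG00000015697, chromosome 3, 95323525 to 95357202), which acts on endogenous retroviruses together with Trim28, measured 65.1, 59.4 and 67.7 CPM in the knockout against 62.7, 57.3 and 55.5 CPM in wild type. The groups overlapped. Its log2 fold change was 0.14 (interval -0.01 to 0.29, edgeR adjusted p = 0.183), and it was called in 0 of the 15 alternatives.

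Of 20 tested partners in H3K9 methylation, 6 rose and 2 fell, 40% called beside 26.5% of all tested genes, with a median of 0.04. Trim28, the co-repressor that brings Setdb1 to zinc finger proteins, fell from 1467 ± 19.7 to 1210.4 ± 5.81 CPM (SD, n = 3; log2 fold change -0.28, edgeR adjusted p = 5.36e-06). Suv39h1, a methyltransferase of heterochromatin, rose (0.46, edgeR adjusted p = 0.00219), as did Dnmt1, the maintenance DNA methyltransferase (0.25, edgeR adjusted p = 0.00171). The number that fell was 1 when knockout replicate 1 or 3, or replicate 1 or 2 of wild type, was left out. In those fits 11.3% to 12.4% of all genes were called lower. Dnmt1 was not called by limma on log2(TPM + 1) (adjusted p = 0.0711). The number that rose was 3 with DESeq2 or a transcript length offset and 2 with limma. Over all genes 5.44% were called higher with DESeq2, 8.07% with the offset and 8.59% with limma on log2(TPM + 1).

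The demethylase Kdm1a (ENSMUSG00000036940, chromosome 4, 136550540 to 136602723) was the most counted of the 9 regulators, with 207, 215 and 201 CPM in the knockout against 214, 208 and 227 CPM in wild type. The groups overlapped. The log2 fold change of -0.06 had an interval of -0.15 to 0.03, or -10.1% to 2.35% (edgeR adjusted p = 0.365).

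Zmym2 (ENSMUSG00000021945, chromosome 14, 56886653 to 56962701) measured 32.3, 25.1 and 27.6 CPM in the knockout against 34.2, 32.1 and 32.5 CPM in wild type. Knockout replicate 1 lay within the wild-type range and the other knockout libraries below it. The log2 fold change was -0.21 (interval -0.42 to -0.00013, edgeR adjusted p = 0.136), and without knockout replicate 1 it was -0.32 and called (edgeR adjusted p = 0.0464; alternatives gave 0.0464 to 0.908). With knockout replicate 2 left out, the lowest library, it was -0.14 and not called (edgeR adjusted p = 0.390). The ratio of Kdm1a to Zmym2 overlapped between the groups (log2 difference 0.14, exact two-sided permutation p = 0.5), and so did that of Dppa4 to Dppa2 (0.08, exact two-sided permutation p = 0.6).

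**Figure D3:**
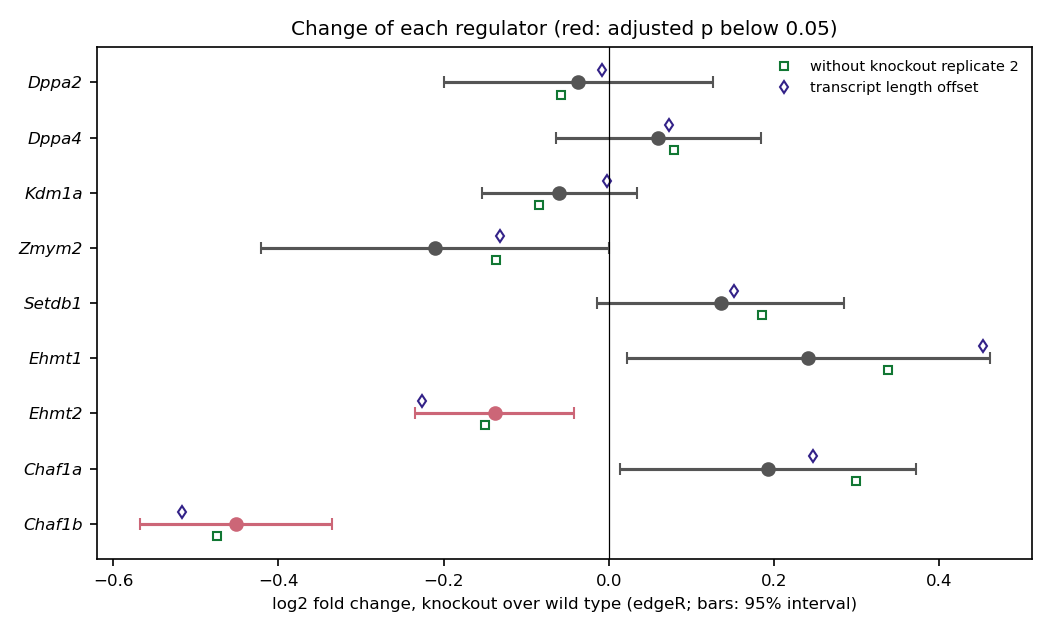
Log2 fold change of each regulator, knockout over wild type (horizontal axis), with its 95% interval from edgeR; squares show the value without knockout replicate 2 and diamonds that with an offset for transcript length. Chaf1b lies farthest from 0 at -0.45 (on log2(TPM + 1), which is not drawn, Ehmt1 does, at 0.47 against -0.40), and the intervals of Dppa2, Dppa4, Kdm1a and Setdb1 include 0.

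Of 15 partners of the LSD1 complex, 6 rose and 2 fell, with a median of 0.21. These calls make 53.3% of the list, beside 26.5% of all tested genes. Rcor2, a CoREST scaffold abundant in stem cells, measured 148, 142 and 152 CPM in the knockout against 213, 212 and 206 CPM in wild type. All knockout libraries lay below all wild-type libraries, and the log2 fold change was -0.51 (SE 0.05, edgeR adjusted p = 2.42e-10). Hmg20b, a subunit of the same complex, fell (-0.26, edgeR adjusted p = 0.00339), and the deacetylase Hdac1 rose (0.18, edgeR adjusted p = 0.00513). Hdac1 lost its call without wild-type replicate 3 (edgeR adjusted p = 0.0583) and with limma on log2(TPM + 1) (adjusted p = 0.0629). The number that rose was not stable: it was 2, 4 and 3 with knockout replicates 1, 2 and 3 left out in turn, 2, 3 and 2 for wild type in the same order, 1 with DESeq2 or a transcript length offset and 0 with limma on TPM. In each of these, 2 falls were called. Over all genes 5.44% were called higher with DESeq2, 8.07% with a transcript length offset and 8.59% with limma on log2(TPM + 1). With single libraries left out this share was 8.5% to 10.8%.

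Other genes reported to restrain the 2-cell-like state went both ways. Of 37 tested, among them subunits of the variant Polycomb complex PRC1.6, of the Tip60 complex and of the SUMO pathway, 7 rose and 6 fell. These calls make 35.1% of the list, beside 26.5% of all tested genes, and the list median was 0.03. Rybp, a subunit of variant Polycomb complexes, rose (0.29, edgeR adjusted p = 2.83e-05). Ruvbl2, an ATPase of the Tip60 complex, fell (-0.24, edgeR adjusted p = 8.30e-05), as did Ncl, or nucleolin, which acts with LINE1 RNA on Dux (-0.22, edgeR adjusted p = 0.000109). Rybp was not called with a transcript length offset (edgeR adjusted p = 0.237) or by limma on log2(TPM + 1) (adjusted p = 0.173), and Ruvbl2 was not called by the latter (adjusted p = 0.0911). The falls numbered 3 when knockout replicate 1, or replicate 1 or 2 of wild type, was left out. They numbered 4 with knockout replicate 3 omitted. In these fits 11.3% to 12.4% of all genes were called lower. Without knockout replicate 2, 8 rose and 5 fell, beside 10.8% and 13.5% of all genes. DESeq2 called 4 rises and 4 falls, beside 5.44% and 9.98%. By limma on log2(TPM + 1) there were 2 rises and 1 fall, beside 8.59% and 5.81%.

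Of 10 tested genes listed as other activators, 3 fell and 0 rose, 30% called beside 26.5% of all tested genes. That share is not comparable with the background, since the falls include Zscan4c and Zscan4f. Both are also 2-cell-like genes and passed the count filter through wild type alone, so their calls are a description. Of the 8 genes that reached the filter's minimum in all knockout libraries, only Trp53 was called. Zscan4c measured 1.12, 0.567 and 0.308 CPM in the knockout against 7.68, 7.33 and 5.67 CPM in wild type, and Zscan4f measured 1.12, 1.32 and 0 CPM in the knockout against 11.4, 10.4 and 13.4 CPM in wild type, with the limit on separating the copies given above. Trp53, which encodes p53, fell slightly (-0.15, edgeR adjusted p = 0.0127), but not on log2(TPM + 1) (-0.02, limma adjusted p = 0.878), nor when replicate 2 of either genotype was left out (edgeR adjusted p = 0.0579 in each). With a transcript length offset 2 fell, the call of Trp53 being lost (edgeR adjusted p = 0.0906), and 1 rose. That offset called 11.1% of all genes lower and 8.07% higher. Without a count filter 4 fell and 0 rose, beside 7.26% and 6.03% of all genes, likewise a description.

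**Figure D4:**
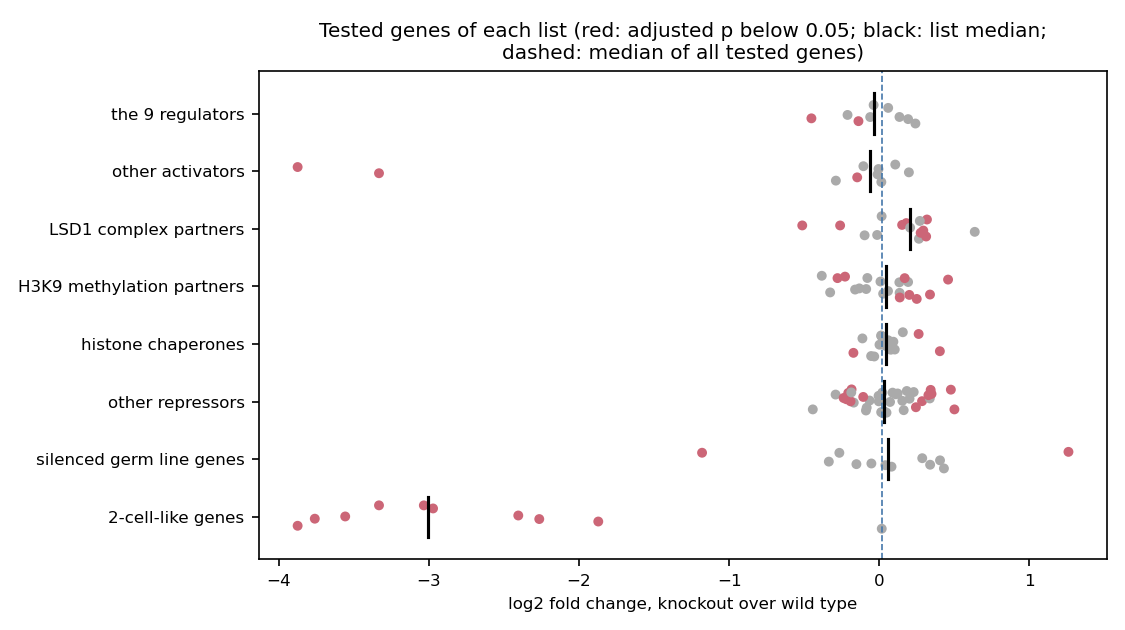
Log2 fold change (horizontal axis) of each tested gene in the lists of related genes, 1 point per gene, red where the adjusted p was below 0.05; black bars are list medians and the dashed line the median of all tested genes, 0.02. The 9 regulators lie between -0.45 and 0.24; of the 10 tested 2-cell-like genes only Zfp850 reached the filter's minimum in all 3 knockout libraries, so the position of that list is set in part by the filter.

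The levels of the regulators can be ordered per length. In wild type the mean TPM ran from Ehmt2 (89.7 ± 1.40) through Chaf1b (78.0 ± 8.89), Kdm1a (65.7 ± 2.05), Dppa4 (56.5 ± 2.46), Dppa2 (22.5 ± 2.59), Setdb1 (11.4 ± 0.888), Chaf1a (9.68 ± 0.537) and Ehmt1 (6.22 ± 0.440) to Zmym2 (5.42 ± 0.430; SD, n = 3). Only the last neighbours, Ehmt1 and Zmym2, had overlapping ranges in wild type. In the knockout, Chaf1b (58.7 ± 4.47) lay below Kdm1a (70.6 ± 1.81) without overlap, and its range overlapped that of Dppa4. The neighbours Setdb1 and Chaf1a overlapped there, as did Chaf1a and Ehmt1, and the other neighbours did not. On this scale the median of all genes was shifted upward by 0.10 with a pseudocount of 1. Besides Ehmt1, Ehmt2 and Chaf1b, Dppa4 (63.997 ± 3.81 against 56.5 ± 2.46 TPM) and Kdm1a did not overlap between the genotypes in TPM. These are 5 of the 9 regulators, beside 37.4% of all tested genes, and limma on log2(TPM + 1) called neither Dppa4 nor Kdm1a (0.18 and 0.10, adjusted p = 0.139 and 0.304).

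The deposited transcript length is an average over isoforms weighted by their estimated share, so it depends on how reads were assigned among them. Ehmt2 averaged 1805, 1806 and 1925 bases in the knockout and 1791, 1694 and 1694 bases in wild type, without overlap. Kdm1a averaged 2949, 2883 and 2871 bases in the knockout and 2985, 2951 and 3000 bases in wild type, close to each other but without overlap. Such separation occurred in 2 of the 9 regulators, 22.2%, and in 16.1% of the 9956 tested genes whose length varied by more than 1 base. With an offset for length the log2 fold change of Ehmt2 was -0.23 (edgeR adjusted p = 0.00845) and that of Ehmt1 0.45 (edgeR adjusted p = 0.0779), against -0.14 and 0.24 without it. The length of Ehmt1 was 2925 bases in knockout replicate 3 and 3510 to 3956 bases in the other 5 libraries.

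Some loci share sequence with protein-coding neighbours on the opposite strand, and whether counting used strand is not given in the sources used here. Kdm1a overlaps Luzp1 over 4241 bases, Chaf1a overlaps Ubxn6 over 5245 bases and Setdb1 overlaps Cers2 over 75 bases. None of these neighbours was called by edgeR (log2 fold changes -0.08, -0.25 and 0.17, adjusted p = 0.580, 0.0833 and 0.119). The annotation places no other gene over Dppa2, Dppa4, Zmym2 or Ehmt2, and over Chaf1b only an intronic transcript of the same strand. Also on the same strand, Ehmt1 is overlapped by the annotated genes Gm37139 and Gm38147, and Kdm1a by the processed pseudogene Gm12987. Setdb1 is further overlapped on the opposite strand by Gm37500 and the processed pseudogene Gm42578.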

How the data were processed

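Mouse embryonic stem cell RNA (3 libraries per genotype) was analysed from 1 deposited table per library. Per the file headers, the authors gave expected counts (estimated counts that need not be whole), TPM, FPKM and gene lengths; TPM and FPKM were scaled by length and library size by the authors, and FPKM was not tested. Bowtie 0.12.2, mm8 and mm10 appear, without their roles, in the submitters' processing notes; no quantifier or annotation is named there. All 55450 identifiers matched GENCODE M21 (GRCm38), the source of coordinates.

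Expected counts were rounded and tested in R 4.3.3 with edgeR 4.0.16 (TMM, filterByExpr, robust quasi-likelihood test, group as the only term). Benjamini-Hochberg adjustment ran over 12891 genes, with calls below 0.05. SE is the absolute log2 fold change divided by the root of F, and 95% intervals use the t distribution. CPM values use TMM-scaled library sizes unless said otherwise. Ratios were tested with SciPy 1.17.1 (exact permutation). Alternatives used DESeq2 1.42.0, limma 3.58.1 on log2 TPM with a pseudocount of 1 or 0.1, other scaling and filters, a replicate block, a length offset, removal of the 20 most abundant genes and omission of each library. The fit was tested on simulated data.

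The regulators and the lists were chosen with earlier results of these data known. Named genes were Hoxd12, the 9 regulators, up to 3 called genes of each list with the smallest p at a mean of at least 1 CPM (the gene of smallest p where none was called), and the 3 genes (at least 5 CPM) nearest in pattern to the activator and the repressor with the smallest p; exceptions are stated. Set tests were not run. Promoter sequences are RefSeq's (GRCm38.p6). Transcripts of repeat elements were not analysed here.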

Additional observations from a re-analysis of the deposited data

How the results depend on the processing

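Of the 9 regulators, Chaf1b kept its direction and its call in all 15 alternatives. The call of Ehmt2 was lost without a count filter (-0.14, adjusted p = 0.0605), with DESeq2 (-0.14) and with limma on log2(TPM + 1) and log2(TPM + 0.1) (-0.12 in both), and its log2 fold change without single libraries ran from -0.15 to -0.12. Chaf1a was called without a count filter (0.19, adjusted p = 0.0475), and its values without single libraries ran from 0.0823 to 0.30; those of Ehmt1 ran from 0.13 to 0.34 and those of Zmym2 from -0.32 to -0.14. The sign of Dppa2 changed to 0.0944 and 0.0982 with limma on log2(TPM + 1) and log2(TPM + 0.1), and its values without single libraries ran from -0.0775 to 0.0154. Kdm1a changed sign to 0.10 in both limma fits, in which the median of all genes was 0.10 and 0.11. The ratio of Kdm1a to Zmym2 ran from -0.0152 to 0.28 without single libraries, reversing without knockout replicate 2. Of the regulators, 1 was called higher and 1 lower without a count filter, beside 6.03% and 7.26% of all genes, and 1 lower with DESeq2 and each limma fit; without single libraries 0 to 2 were higher and 1 to 2 lower, beside at most 10.8% of all genes higher and 11.3% to 13.5% lower. Over all genes DESeq2 called 701 higher, and limma called 749 and 738 lower; the cause was not tested.

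With the replicate number as a block, 1513 genes were higher and 1840 lower, and the calls of the 9 regulators did not change. Deviations from the group means of libraries with the same number correlated at -0.00472, 0.0361 and 0.00754, so the numbers are not taken to pair them. Without single libraries, 1118 to 1423 genes were higher and 1486 to 1787 lower. At this depth Hoxd12 had 0 counts in every library and Duxf3 at most 4, and neither was among the genes tested in the main fit.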

Other observations

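Germ line genes that H3K9 methyltransferases or the PRC1.6 complex are known to silence in stem cells were listed as a further readout of the repressors. Of 20 genes 12 were tested, with a median log2 fold change of 0.06. Only 1 was called higher and 1 lower, 16.7% of the 12, beside 26.5% of all tested genes. Dazl, an RNA-binding protein of germ cells, measured 2.40, 5.10 and 5.54 CPM in the knockout against 9.43, 9.61 and 10.5 CPM in wild type, and fell (-1.18, SE 0.23, edgeR adjusted p = 0.000219). Tdrkh, a Tudor protein of the piRNA pathway, measured 3.201, 5.48 and 4.93 CPM in the knockout against 1.40, 0.977 and 3.27 CPM in wild type. It rose (1.26, edgeR adjusted p = 0.0107), although knockout replicate 1 lay just below wild-type replicate 3. That call was lost when knockout replicate 2 or 3, or replicate 1 or 2 of wild type, was left out (edgeR adjusted p = 0.0542 to 0.0864), with a transcript length offset (0.0639) and with limma on log2(TPM + 0.1) (adjusted p = 0.0641).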
